A study of Mus musculus with 2 samples.

Results

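Macrophages and other white blood cells made up 84 of 21982 barcodes in 2 libraries of single cells from mouse hearts at E11.5 (embryonic day). Barcodes needed 500 genes or more, with no more than 10% of UMIs (unique molecular identifiers, which count captured RNA molecules) from mitochondria. The cells were chosen by their own RNA: a barcode was taken as a white blood cell when at least 4 of 6 marker genes, Ptprc, Fcer1g, Tyrobp, C1qa, C1qb and Csf1r, each had a UMI and globin genes made up less than 50% of its UMIs. The control library held 39 of these cells and the H2CKO library 45.

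Each genotype was represented by a single library, made with 10x Genomics 3′ chemistry from whole hearts dissociated with TrypLE after embryos had been held on ice. Control embryos were Hand2fx/+ R26RmTmG/wt and carried no Cre. H2CKO embryos were Nfatc1Cre/wt Hand2fx/fx R26RmTmG/wt, so that Cre recombinase, driven by Nfatc1 in the endocardium, deletes the transcription factor gene Hand2 there and switches the mTmG reporter from membrane Tomato to membrane GFP. Both genotypes shared 1 copy of the reporter and at least 1 floxed Hand2 allele. The labels give neither the number of embryos pooled into a library nor their sex, and they name no sort.

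Macrophages are phagocytes that enter embryonic organs early, many of them born in the yolk sac, and engulf dying cells and debris while the organ is remodelled. They depend on signalling through the CSF1 receptor (Csf1r) and on the transcription factor PU.1 (Spi1), and secrete C1q, the recognition part of the classical complement pathway, built from the chains C1qa, C1qb and C1qc. Immature myeloid cells, in contrast, fill their primary granules with enzymes such as proteinase 3 (Prtn3) and myeloperoxidase (Mpo).

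Levels are UMIs of a gene over all UMIs of the cells summed, scaled to 1000000 (CPM), from 747583 UMIs of the control cells and 846947 UMIs of the H2CKO cells. With 1 library per genotype no difference between genotypes has a replicate check and no test was made. Intervals are exact 95% Poisson intervals for counts and exact Clopper-Pearson intervals for shares, and cover counting error only. The whole libraries held 195825720 and 201477256 UMIs over 14114 and 13885 barcodes, of which 9841 and 12141 were kept. The libraries had 57 barcode sequences in common, and none belonged to a white blood cell. Hand2, the targeted gene, stood at 177 CPM in control and 25.99 CPM in H2CKO barcodes among barcodes with a UMI in at least 6 of 12 endothelial markers (470 and 789 barcodes). Where the counted 3′ reads lie relative to the floxed part is not given in the sources used here.

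White blood cells were rare in both hearts. They formed 0.396% of kept control barcodes (95% interval 0.282 to 0.541%) and 0.371% of kept H2CKO barcodes (0.270 to 0.496%), and these intervals overlapped. The libraries differed in red blood cells, with 2729 globin-rich barcodes in the control and 5090 in H2CKO. Over the barcodes that were not globin-rich, the shares were 0.548% of 7112 (0.390 to 0.749%) and 0.638% of 7051 (0.466 to 0.853%), so the order of the libraries turned with the denominator. A cell held a median of 16349 UMIs and 3917 genes in the control, and 18300 UMIs and 3732 genes in H2CKO.

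The 6 rule genes chose the cells, and their levels are a description. Tyrobp, an adaptor that carries the signalling motif for several activating receptors, had a UMI in all 39 control and all 45 H2CKO cells, at 860 and 1095 CPM. Fcer1g, the shared signalling chain of Fc receptors, was detected in 37 and 45 cells at 820 and 1024 CPM. Both adaptors were thus present in nearly every cell of either library. C1qb stood at 868 and 1361 CPM, with a UMI in 34 and 35 cells. C1qa stood at 435 and 509 CPM, with a UMI in 32 cells of each library. Csf1r was detected in 35 and 43 cells at 282 and 221 CPM. Ptprc (CD45), a tyrosine phosphatase on the surface of white blood cells, was detected in 31 and 33 cells at 177 CPM (148 to 209) and 80.3 CPM (62.3 to 102).

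The edge of the rule ran through blood cells of another kind. All 6 markers were present in 22 control and 20 H2CKO cells, exactly 5 in 8 and 13, and exactly 4 in 9 and 12. Just outside, exactly 3 markers were found in 19 control and 18 H2CKO barcodes with globin under 50%. All of those barcodes had Fcer1g and Tyrobp, and Ptprc was found in 19 and 15 of them. None of the 19 control barcodes had a C1qa, C1qb, C1qc or Csf1r UMI, and among the 18 H2CKO barcodes 1 had C1qb, 1 had C1qc and 2 had Csf1r. Prtn3 was found in 14 and 11 of them, Mpo in 13 and 10, and Kit, the stem cell factor receptor of progenitors and mast cells, in 13 and 8. Below that, single-marker barcodes were common, with 154 and 136.

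**Figure D1:**
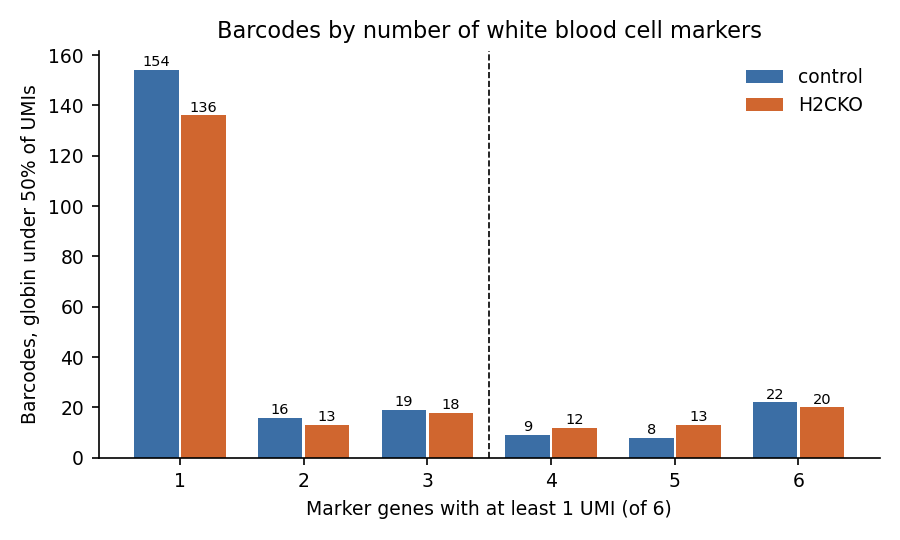
Number of kept barcodes with globin under 50% of UMIs (vertical axis) by how many of the 6 marker genes had at least 1 UMI (horizontal axis), in the control (blue) and H2CKO (orange) libraries. The dashed line is the threshold of 4 genes; 39 control and 45 H2CKO barcodes lie to its right, and 19 and 18 lie just to its left.

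Genes outside the rule marked the cells as myeloid. Of 2583 genes abundant enough to compare in both libraries (at least 50 CPM and 20 UMIs on the higher side), 430 were at least 2-fold higher in the white blood cells than in all other kept barcodes of both libraries (16.6%), and 210 were at least 2-fold lower (8.13%). Ratios here and below are of CPM plus 5, and this comparison describes the cells, since their own genes chose them. All 11 comparable genes of a pan-leukocyte list and all 9 of a macrophage list were among the higher ones. The 15 genes that stood out most, by the lower of the 2 libraries' ratios, were C1qc, Coro1a, Ccl4, Cd52, Ctss, Ccl3, Cx3cr1, Spi1, Laptm5, Trem2, Aif1, Rac2, Lcp1, Ctsc and Ly86.

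C1qc, the C1q chain the rule did not use, had 440 CPM in the control cells (394 to 490) and 607 CPM in the H2CKO cells (556 to 661.7). In the other barcodes that were not globin-rich it had 0.0297 and 0.0412 CPM. Coro1a, an actin regulator of blood cells, had 607 and 773 CPM against 2.62 and 3.05 CPM. For 14 of the 15 genes the libraries lay within 2-fold of each other; Lcp1 (plastin, an actin bundler of blood cells) had 532 and 261 CPM, a log2 ratio of -1.01 that was under 2-fold in 9 of 16 alternatives, beside -0.84 in other barcodes. Cx3cr1, the fractalkine receptor of tissue macrophages, had 427 and 301 CPM and was detected in 33 and 36 cells. Spi1 had 260 and 342 CPM and was detected in 32 and 42 cells. Trem2, a lipid-sensing receptor that signals through Tyrobp, had 235 and 224 CPM and was found in 31 cells of each library.

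**Figure D2:**
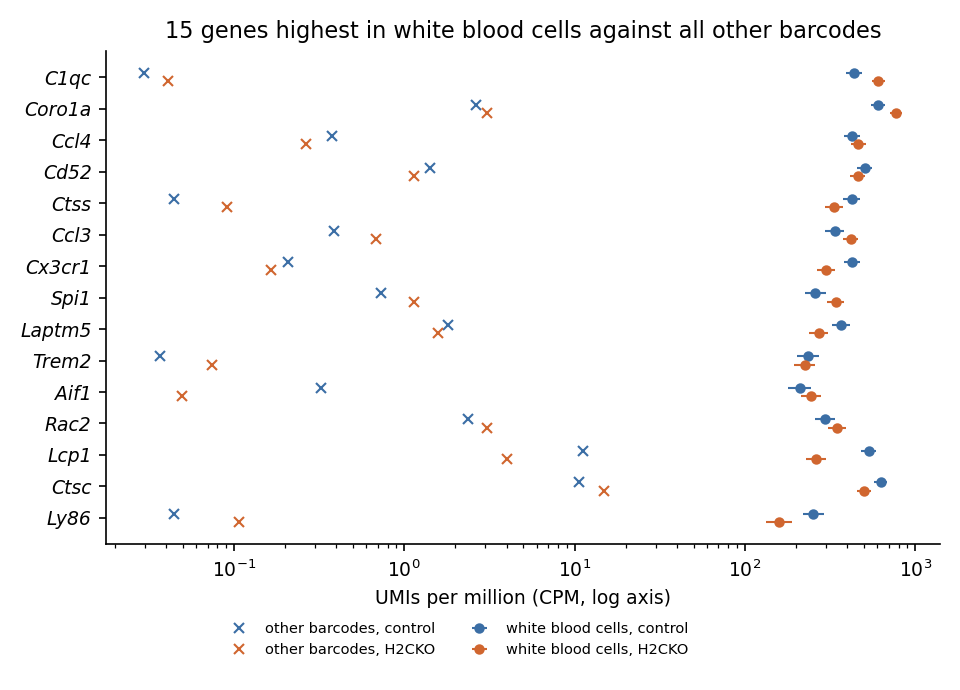
Level (horizontal log axis, CPM) of the 15 genes with the highest ratio of white blood cells to all other barcodes, the 6 rule genes left out, shown in white blood cells (filled points with exact 95% Poisson intervals) and in other barcodes that were not globin-rich (crosses), for control (blue) and H2CKO (orange). C1qc lies at 440 and 607 CPM in white blood cells and at 0.0297 and 0.0412 CPM elsewhere.

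Many genes of other white blood cell classes were at or near 0. S100a8, S100a9, Camp, Ngp and Ltf, which mark maturing neutrophils, had no UMI in any of the 84 cells. Of the primary-granule enzymes, Ctsg had none and Elane had 1 and 2 UMIs, whereas Prtn3 and Mpo were present. Csf3r, from the same neutrophil list, was also present. It had 4 UMIs in control cells with a Prtn3 or Mpo UMI and 8 in the other control cells, and 4 and 11 in H2CKO. The T and B cell genes Cd3e, Cd3d, Ms4a1 and Rag1 had none either, nor did Nkg7 of natural killer cells. Cd79b, listed as a B cell gene, was the exception with 24 and 56 UMIs in 16 and 28 cells, while its partner Cd79a had 0 and 1 UMI. Ly6c2, Chil3 and Cd209a of monocytes and monocyte-derived cells were at 0 UMIs, and Ccr2 had 10 and 15 UMIs in 3 and 7 cells. Plac8, from the same monocyte list, was present, with 151 and 205 UMIs in 17 and 18 cells, and is described with the granule enzymes. The class II antigen-presentation genes H2-Aa and Ciita were at 0 UMIs, and H2-Ab1 had 2 and 3. Mast cell genes Cpa3 and Ms4a2 were confined to a single control cell among the 84, with 28 and 8 UMIs. The floor set for a count of 0 over a library's cells was 3 UMIs.

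Markers of resident macrophages were mixed. Mrc1, the mannose receptor CD206, had 151 and 148 CPM and was found in 14 and 26 cells, and F13a1 (coagulation factor XIII) had 58.9 and 88.6 CPM. Lyve1, a hyaluronan receptor of perivascular macrophages, had only 7 and 15 UMIs, Folr2 8 and 15, and Timd4, a receptor for dying cells, 5 and 7. Cd163, Cbr2 and Vsig4, scavenging or adult-macrophage genes, had none. The microglial genes Fcrls (154 and 214 CPM) and P2ry12 (52.2 and 23.6 CPM) were present in the heart cells, whereas Sall1 and Siglech had at most 1 UMI in either library.

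Within the 84 cells, C1q and granule enzymes were distributed unevenly. Prtn3 had 197 and 283 CPM, but its UMIs came from 13 control and 15 H2CKO cells. Mpo, with 143 and 142 CPM, came from 8 and 10 cells. Cells with a UMI of either gene numbered 13 of 39 (33.3%, 19.1 to 50.2%) and 16 of 45 (35.6%, 21.9 to 51.2%). These shares depended on depth: with cells thinned to 2000 UMIs they were 6 of 35 (17.1%) and 10 of 43 (23.3%). With barcodes thinned before the rule was applied they were 0 of 19 and 0 of 20. That setting also changed which cells passed the rule, so it does not isolate detection of these genes. In kept barcodes that were neither white blood cells nor globin-rich and had at least 2000 UMIs, 3.66% of the control and 1.97% of H2CKO had such a UMI, at median depths of 17448 and 14766 UMIs. In globin-rich barcodes the shares were 0.366% and 0.0393%. The split by Prtn3 and Mpo was chosen after their values were seen and is a description without a test.

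Summed over the 3 chains, C1q ranged from 0 to 115 UMIs per control cell (median 17) and from 0 to 155 per H2CKO cell (median 45). C1q was low where granule enzymes were present. The summed UMIs of C1qa, C1qb and C1qc had a median of 5 in the 13 control cells with Prtn3 or Mpo and 46.5 in the other 26. The medians were 0 in the 16 H2CKO cells and 55 in the other 29. None of the 26 control cells lacked C1q, against 4 of the 13; in H2CKO the numbers were 1 of 29 and 9 of 16. The cells with granule enzymes were the deeper ones by median, with 21037 against 15480 UMIs in the control and 19585 against 18300 in H2CKO. With each cell thinned to 2000 UMIs, a C1q UMI remained in 4 of 13 and 3 of 16 cells with granule enzymes, and in 22 of 22 and 25 of 27 of the others. The ranges still overlapped, since cells with Prtn3 or Mpo reached 62 and 124 C1q UMIs. Those with over 18 C1q UMIs were 1 control cell and 3 H2CKO cells, each with only 1 to 3 UMIs of Prtn3 and Mpo. The rule bears on this pattern: a cell without C1qa and C1qb enters only with all 4 of the remaining markers.

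**Figure D3:**
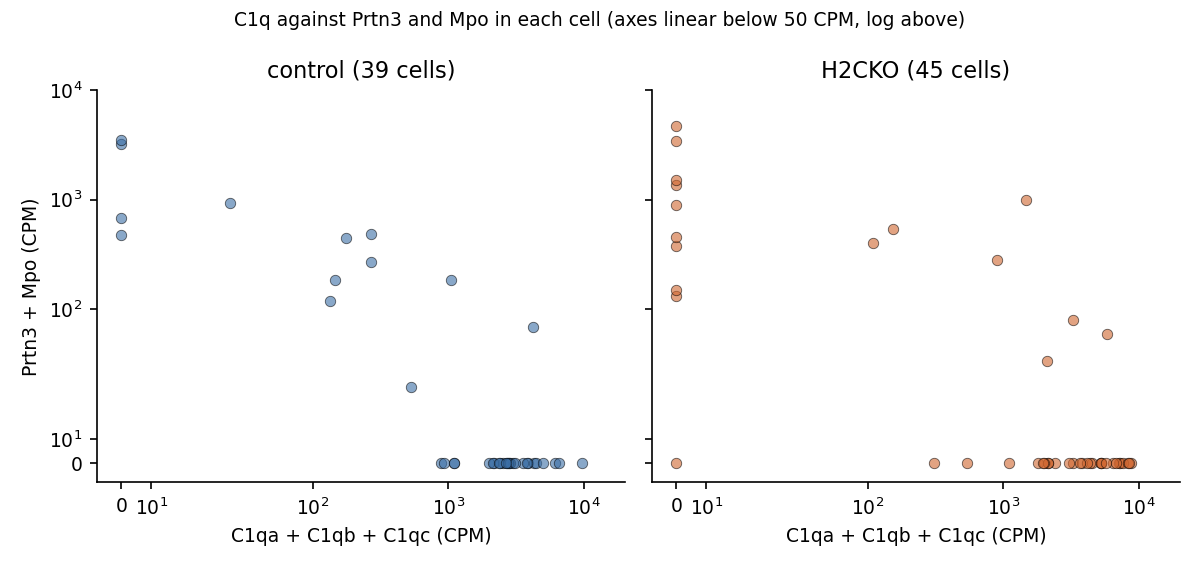
Summed level of C1qa, C1qb and C1qc (horizontal axis, CPM) against that of Prtn3 and Mpo (vertical axis, CPM) in each white blood cell, 39 control cells on the left and 45 H2CKO cells on the right; axes are linear below 50 CPM and logarithmic above. Cells with high C1q lie mostly at 0 on the vertical axis, and 4 control and 9 H2CKO cells with granule enzymes lie at 0 on the horizontal axis; 1 H2CKO cell lies at 0 on both.

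The stretches before the start of 4 genes at the ends of this pattern are shown to give their sequence context, from RefSeq on GRCm38.p6 and matched by symbol. C1qb and C1qc lie beside C1qa on chromosome 4, with the 3 chain genes between 136880126 and 136898844. Prtn3 lies on chromosome 10 (79879667 to 79883174) and Mpo on chromosome 11 (87793784 to 87804412). Each sequence runs 5′ to 3′ on the gene's strand and ends at the base before the gene's start, with 250 bases shown, or 228 for C1qc. Capitals mark GAGGAAGT or its core GAGGAA on either strand (ACTTCCTC and TTCCTC), letters typical of sites bound by PU.1, with the core contained in the longer motif. The stretches are chr4:136886201-136886450 (minus strand), chr4:136892937-136893164 (minus strand), chr10:79879417-79879666 (plus strand) and chr11:87793534-87793783 (plus strand).
C1qb: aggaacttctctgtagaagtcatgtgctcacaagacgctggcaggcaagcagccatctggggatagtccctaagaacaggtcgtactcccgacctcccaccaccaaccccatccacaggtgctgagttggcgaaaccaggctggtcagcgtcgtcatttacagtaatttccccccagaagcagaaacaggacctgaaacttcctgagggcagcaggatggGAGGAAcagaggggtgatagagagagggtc
C1qc: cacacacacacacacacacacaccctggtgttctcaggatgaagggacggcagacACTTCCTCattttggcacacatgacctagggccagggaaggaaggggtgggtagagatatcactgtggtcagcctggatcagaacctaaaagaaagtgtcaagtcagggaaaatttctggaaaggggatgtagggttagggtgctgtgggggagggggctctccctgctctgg
Prtn3: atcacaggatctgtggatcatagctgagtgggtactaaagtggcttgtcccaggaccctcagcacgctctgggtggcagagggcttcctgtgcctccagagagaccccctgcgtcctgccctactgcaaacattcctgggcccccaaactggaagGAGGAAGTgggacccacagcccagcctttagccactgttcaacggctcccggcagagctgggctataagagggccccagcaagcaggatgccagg
Mpo: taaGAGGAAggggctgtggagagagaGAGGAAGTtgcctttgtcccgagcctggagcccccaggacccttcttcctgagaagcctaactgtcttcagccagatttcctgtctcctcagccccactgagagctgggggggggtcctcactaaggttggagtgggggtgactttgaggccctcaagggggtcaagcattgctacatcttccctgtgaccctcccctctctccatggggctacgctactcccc
The longer motif was found 173 bases before the start of C1qc, 95 before Prtn3 and 224 before Mpo, and the core alone 30 before C1qb and 247 before Mpo. Over all 32851 promoters of the table, the 250 bases before the table's start held the longer motif in 802 (2.44%) and the core in 7639 (23.3%). A match describes letters and is not evidence of binding. Spi1 itself was detected in cells of both kinds, at 264 CPM with granule enzymes and 256 CPM without in the control, and at 401 and 304 CPM in H2CKO.

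Other genes also differed between these cells. Of 2466 genes comparable in both libraries, 15 were at least 2-fold higher in cells with Prtn3 or Mpo in both (0.608%) and 79 at least 2-fold lower (3.2%). The 15 include Prtn3 and Mpo, which define the split. Plac8, a small protein of immature myeloid cells, had 430 CPM against 19.3 in the control and 553 against 37.2 in H2CKO. Srgn (serglycin, the proteoglycan that packs granule enzymes) had 376 against 130 CPM and 384 against 114 CPM. Hmga2, a chromatin protein of fetal progenitors, had 46 UMIs against 18 in the control and 47 against 23 in H2CKO. These genes were higher in both libraries. So was Acta2, a smooth-muscle gene, at 574 against 82.0 CPM and 556 against 245 CPM. Actc1, a cardiomyocyte gene, had 2128 against 424 CPM and 2295 against 1535 CPM, though none of 11 comparable cardiomyocyte genes was past 2-fold in both libraries. The cells with granule enzymes include the control cell of 67688 UMIs and the H2CKO cell of 45533 UMIs that carried cardiomyocyte genes. Kit, which marks progenitors, had 3 and 5 UMIs in 1 and 3 cells, all with granule enzymes, and Myb had 7 and 6 UMIs there against 0 and 1 in the others. Cd34, the only comparable gene of the progenitor list, was within 2-fold, at 135 against 98.8 CPM in the control and 146 against 84.2 CPM in H2CKO. Gata2, from the same list, had 9 UMIs against 1 in the control but 1 against 5 in H2CKO.

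Lysosomal, iron-handling and resident-macrophage genes were among those lower in these cells. From a lysosome list, 8 of 18 comparable genes were at least 2-fold lower in both libraries, beside 3.2% of all genes (among them the cathepsins Ctsb, Ctsd, Ctsl and Ctss) and none was higher. Ctsb (cathepsin B) had 243 CPM with granule enzymes against 1176 without in the control, and 327 against 1228 in H2CKO. From an iron and haem list 5 of 7 were lower: Hmox1 (haem oxygenase), Slc40a1 (ferroportin, the iron exporter), Ftl1, Slc48a1 and Blvrb. Hmox1 had 36.1 against 463 CPM and 38.7 against 668 CPM, with 133 of 204 control UMIs and 163 of 354 H2CKO UMIs in 1 cell of each library. Slc40a1 had 0 against 37 UMIs and 1 against 58 UMIs. Apoe, the main lipid carrier made by macrophages, had 493 against 3344 CPM and 746 against 5456 CPM. Of the resident-macrophage genes, 4 of 4 comparable ones were lower: Mrc1, F13a1, Stab1 and Pf4.

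No single one of 11 S phase or 12 G2/M genes was past 2-fold in both libraries, where 0.608% of all genes were higher and 3.2% lower. The summed G2/M genes had a median of 1603 CPM per cell with granule enzymes and 1741 without in the control, and 2022 and 1010 in H2CKO. The order of the medians thus differed between libraries, but the ranges overlapped widely. They were 345 to 5088 and 0 to 6995 CPM in the control, and 150 to 5054 and 43.9 to 6434 CPM in H2CKO. Mki67, a protein of cycling nuclei, had a UMI in 30 of 39 and 33 of 45 cells. After thinning it was found in 6 of 13 control cells with granule enzymes and 9 of 22 without, and in 7 of 16 and 5 of 27 in H2CKO. Over all thinned white blood cells it was found in 42.9% of the control and 27.9% of H2CKO. The shares were 22.7% and 16.9% in other barcodes and 54.4% and 21.0% in globin-rich ones.

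The authors' 2-coordinate embedding, which covers a subset of barcodes, was not used to choose the cells. It contained 28 of the 39 control cells and 36 of the 45 H2CKO cells. At least 8 of the 15 nearest barcodes were also white blood cells for 25 and 29 of them. All but 2 lay within 3 units of their library's median position, and both exceptions were H2CKO cells described below. Along the second coordinate the C1q level ordered the cells, with Spearman's rho of 0.651 over 28 control cells and 0.791 over 34 H2CKO cells; the points share a library and the embedding was computed from the same RNA, so this is a description. Within the same 3 units lay 27 and 54 barcodes that were not white blood cells by the rule. None of them had a C1qa UMI. Kit was found in 18 and 29, Myb in 20 and 32, Mpo in 20 and 20, Cpa3 in 8 and 12, and the platelet gene Gp9 in 4 and 15.

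**Figure D4:**
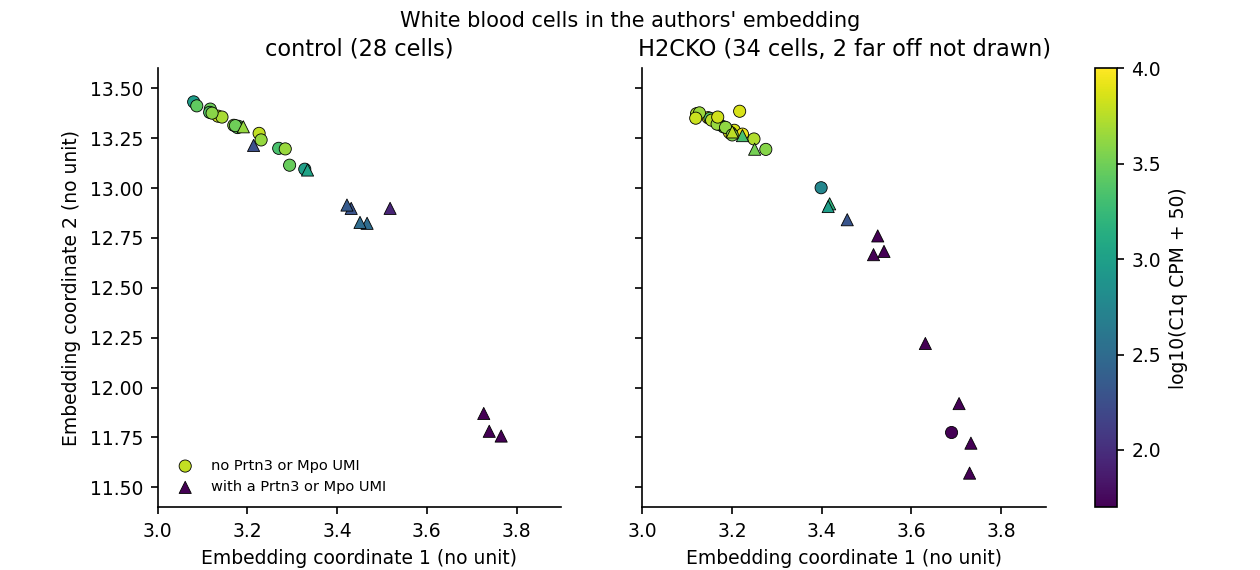
White blood cells at the authors' embedding coordinates (no unit), coloured by log10 of the summed C1q CPM plus 50; triangles have a Prtn3 or Mpo UMI and circles do not. Cells without C1q lie at the lower right of both panels, and 2 H2CKO cells far from the rest are not drawn.

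Some barcodes carried genes of other heart cells. Globin exceeded 10% of UMIs in 2 control cells (29.2 to 33.5%) and 5 H2CKO cells (18.5 to 40.0%), none of them in the embedding. Of cells above 30000 UMIs, 1 control cell (67688 UMIs, 3.795%) and 2 H2CKO cells (45533 and 61581 UMIs, 5.04% and 4.83%) had over 1% of UMIs in 12 cardiomyocyte genes. The median share was 0.128% in the control cells and 0.138% in H2CKO. The 2 H2CKO cells are those that lay apart in the embedding. In all, 10 cells of each library carried over 10% globin, over 1% cardiomyocyte UMIs, or at least 20 UMIs of an endothelial or a mesenchymal list of 12 genes each. Endothelial genes summed to 85.6 CPM in the control and 182 CPM in H2CKO white blood cells, and mesenchymal genes to 428 and 79.1 CPM. Single cells weighed on these sums: 146 of the 320 control mesenchymal UMIs lay in 1 cell and 69 in another, and 60 of the 154 H2CKO endothelial UMIs lay in 1 cell.

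Between genotypes, most genes of the white blood cells lay within 2-fold. Of 3028 genes with at least 50 CPM and 20 UMIs in the higher library, 199 were past 2-fold (6.57%), 48 of them higher in H2CKO (1.59%) and 151 lower (4.99%). Centred on the median gene, the split was 59 higher and 102 lower. The excess of lower genes did not hold at a minimum of 200 CPM (18 higher, 19 lower) or after thinning (24 higher, 12 lower). It was larger with all 6 markers (71 higher, 275 lower) and with at most 5% mitochondrial UMIs (40 higher, 228 lower). The median mitochondrial share was 2.58% in the control cells and 3.64% in the H2CKO cells, and its part in these counts was not tested. The median log2 ratio was -0.11 in the white blood cells and -0.12 for the same genes in the other barcodes. Without the cell holding the most UMIs of each gene, 22 of the 48 and 102 of the 151 were still past 2-fold. Leaving out the 10 cells of each library that carried other cells' genes gave 73 higher and 148 lower genes, of which 30 and 90 were shared with the first lists. Of the 151 lower genes, 42 had a control level in other barcodes at least as high as in the white blood cells. The difference lay at least 1 log2 unit beyond that of the other barcodes for 21 higher and 13 lower genes. The lowest ratio, that of the predicted gene Gm10260 (-6.65), was nearly as low in other barcodes (-6.08); it was singled out after its value was seen. Of the 6 rule genes, Ptprc was past 2-fold, with a log2 ratio of -1.09, and was under 2-fold in 5 of 16 alternatives, some of which cannot move it. Its detection helped to choose the cells, so its level depends on the rule. The ratio was -0.91 with at least 3 markers and -0.92 with all 6.

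**Figure D5:**
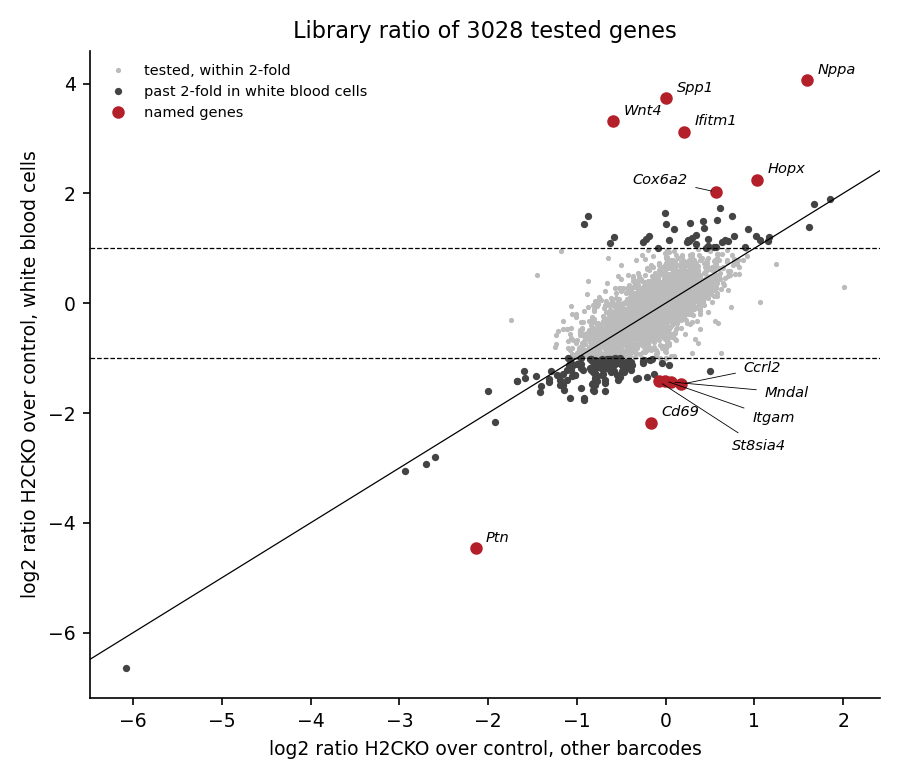
log2 ratio of H2CKO over control (CPM plus 5) in white blood cells (vertical axis) against that in other barcodes that were not globin-rich (horizontal axis) for 3028 genes; dashed lines mark 2-fold in white blood cells and the solid line equal ratios. The 199 dark or red points lie past 2-fold, and the 12 red points are the named genes, from Nppa at 4.06 to Ptn at -4.46.

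For 5 of the 6 named genes with the highest ratios, 1 cell held most of the H2CKO UMIs, and for Wnt4 2 cells did. Nppa, the atrial natriuretic peptide of cardiomyocytes, had 17 UMIs in the control cells and 388 in H2CKO, 329 of them in the H2CKO cell of 61581 UMIs with cardiomyocyte genes. Its log2 ratio was 4.06, and 1.53 without that cell, against 1.59 in other barcodes. The same cell held 42 of 59 UMIs of Hopx, a homeodomain cofactor of heart muscle, and 38 of 73 of Cox6a2, a respiratory chain subunit of striated muscle. Their log2 ratios of 2.25 and 2.03 were 0.76 and 1.15 without that cell, and 0.16 and 0.99 without the cells carrying other cells' genes. Spp1 (osteopontin, a matrix protein and cytokine) had 8 and 172 UMIs, of which 139 lay in 1 cell (log2 ratio 3.73, 1.52 without it). Ifitm1, an interferon-induced membrane protein, had 15 and 181 UMIs, of which 135 lay in 1 cell of 6666 UMIs with no C1q (3.13, and 1.25 without it). The log2 ratio of Ifitm1 was 0.45 with at least 3 markers, 0.07 with all 6 and 0 after thinning. Wnt4, a secreted Wnt ligand, had 1 and 49 UMIs in 1 and 5 cells, a log2 ratio of 3.31; the ratio of CPM without the added 5 was 43.3, with an exact 95% interval of 7.41 to 1743. Of the 49 UMIs, 24 and 21 lay in 2 cells. Barcodes with endothelial markers had 242 and 113 CPM of Wnt4.

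On the lower side, Ptn (pleiotrophin, a growth factor of connective tissue) had 117 UMIs in the control, 73 of them in 1 cell with 69 mesenchymal UMIs, and 2 in H2CKO (log2 ratio -4.46, and -2.14 in other barcodes). Without cells carrying other cells' genes it was -0.87, under 2-fold. The other 5 lower genes were found in 17 to 21 control cells and 8 to 14 H2CKO cells. Cd69, an early activation antigen, had 57 UMIs in 19 control cells and 11 in 8 H2CKO cells. Its level was 76.2 CPM (57.7 to 98.8) against 12.99 CPM (6.48 to 23.2), which is -2.18 on the log2 scale. Ccrl2, a chemerin-binding receptor, had 91.0 CPM (70.6 to 115) and 29.5 CPM (19.1 to 43.6). Mndal, an interferon-inducible nuclear protein, had 88.3 and 29.5 CPM in 20 and 13 cells, and was under 2-fold in 4 of 16 alternatives. St8sia4, which builds polysialic acid, had 65.5 and 21.3 CPM in 21 and 14 cells, with a log2 ratio of 0 after thinning. Itgam (CD11b, a chain of complement receptor 3) had 52.2 CPM (37.1 to 71.3) and 16.5 CPM (9.04 to 27.7) in 17 and 10 cells. The counting intervals of these 5 genes, which were picked for their ratios, did not overlap between libraries.

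By function, none of 10 comparable ITAM adaptor, Fc receptor and kinase genes was past 2-fold, nor any of 12 myeloid transcription factors, and the medians were -0.04 and -0.29 against -0.11 over all genes. With 6.57% of all genes past 2-fold, counts of 0 in lists of this size are near the background. The 3 C1q chains had log2 ratios of 0.22, 0.65 and 0.46. Hmox1 had 273 and 418 CPM, and none of 8 iron and haem genes was past 2-fold.

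Chemokines were among the genes that marked the cells against others. Of 8 comparable members of the chemokine and cytokine list, 3 were past 2-fold higher in H2CKO, beside 1.59% of all genes. Among these 3, Ccl9 and Il1b lay below the CPM minimum in the control and were comparable only through their H2CKO levels. The third, Pf4, turned lower in H2CKO when barcodes with 3 markers were admitted. The count is therefore a description and does not show a shift of the list as a set. Ccl9 had 20.1 CPM (11.2 to 33.1) and 73.2 CPM (56.1 to 93.8) in 9 and 20 cells. Il1b (interleukin-1 beta) had 16.1 CPM (8.29 to 28.04) and 52.0 CPM (37.7 to 69.7) in 5 and 12 cells; its log2 ratio of 1.44 was 0.41 with all 6 markers and -0.94 after thinning. Pf4 (CXCL4), which platelets and some macrophages make, had 66.9 and 210 CPM in 9 and 21 cells; its log2 ratio of 1.58 became -1.51 when barcodes with 3 markers were admitted. Ccl3 (337 and 418 CPM), Ccl4 (427 and 463 CPM) and Ccl2 (207 and 213 CPM) were within 2-fold. Il6 and Il10 had no UMI. Gas6, a bridge between dying cells and phagocyte receptors, had 26.8 and 59.0 CPM (log2 ratio 1.01, and 0.65 without its top cell). Csf1, the ligand of the receptor Csf1r, had 1 and 2 UMIs in the white blood cells and 9.56 and 3.36 CPM in other barcodes, and its second ligand Il34 had none in the white blood cells.

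From a list of immediate-early and heat shock genes, 9 of 10 comparable members were at least 2-fold higher in white blood cells than in all other kept barcodes. The share over all genes was 16.6%. This comparison includes globin-rich barcodes, where the list summed to 121 and 132 CPM. The sums were 4246 and 3808 CPM in white blood cells and 1587 and 1138 CPM in other barcodes that were not globin-rich. Fos had 1067 and 968 CPM and Atf3 453 and 373 CPM. Between libraries 1 of 11 was past 2-fold in either direction, beside 6.57% of all genes. It was Fosb, at 242 and 87.4 CPM (log2 ratio -1.42, and -1.68 in other barcodes). How the hold on ice and the enzyme treatment bear on these genes was not tested.

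The GFP reporter was sparse in white blood cells. Control cells, which have no Cre, gave 6 GFP UMIs in 6 of 39 cells, or 8.03 CPM (2.95 to 17.5), and other control barcodes had 11.7 CPM. H2CKO cells gave 32 UMIs in 10 of 45, or 37.8 CPM (25.8 to 53.3), a log2 ratio of 1.72. Most of that excess lay in 1 cell with 19 UMIs. Without it 13 UMIs were left, or 15.8 CPM, and the log2 ratio was 0.67. Other H2CKO barcodes had 202 CPM, globin-rich ones 6.04 CPM, and those with at least 6 endothelial markers 950 CPM, with at least 5 GFP UMIs in 63.1%. Of the white blood cells, only 2 of 45 H2CKO cells had at least 5 GFP UMIs, and none of 39 control cells. Median depths were 18300 UMIs in these cells and 14320 in the other H2CKO barcodes. Thinned to 2000 UMIs, 3 of 43 H2CKO white blood cells had a GFP UMI, against 14.4% of other and 1.18% of globin-rich barcodes.

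The 2 cells with the most GFP were C1q-rich. They held 19 and 5 GFP UMIs, 155 and 153 C1q UMIs and no Prtn3 or Mpo UMI. They were also the 2 cells that held 24 and 21 Wnt4 UMIs, and the former held the 139 Spp1 UMIs. Their endothelial list sums were 14 and 18 UMIs, and their mesenchymal sums 17 and 7. Whether RNA of a second cell contributed to them was not tested.

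Hand2 was low in white blood cells of both genotypes, with 12 UMIs in 4 control cells, or 16.1 CPM (8.29 to 28.04), and 15 UMIs in 6 H2CKO cells, or 17.7 CPM (9.91 to 29.2). Other barcodes had 113 and 65.6 CPM. All 12 control UMIs lay in 4 cells that carried at least 20 mesenchymal UMIs, 5 of them in the deep cell with cardiomyocyte genes. In H2CKO 5 of the 15 lay in the deepest cell with cardiomyocyte genes and 3 in the other. Tomato had 11 and 5 UMIs, or 14.7 and 5.90 CPM, against 18.6 and 4.27 CPM in other barcodes. Nfatc1, the gene that drives the Cre, had 13 and 11 UMIs in 11 and 8 cells, or 17.4 CPM (9.26 to 29.7) against 12.99 CPM (6.48 to 23.2).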

How the data were processed

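For each library the authors deposited raw UMI counts of every gene and barcode, and embedding coordinates (a score with no unit) for a subset of barcodes. The submitters' processing notes name Cell Ranger 5.0.1, Seurat 4 and the build GRCm38.p6. Of 22401 features, 22285 matched a symbol. UMIs were summed over white blood cells per library and divided by all their UMIs, and ratios used CPM plus 5; past 2-fold means a log2 ratio of 1 or more in size (python 3.11.15, scipy 1.17.1). The member cells and the 33 gene lists were chosen with earlier results of these data known. Doublets were not removed from the cells described. Scrublet (scanpy 1.11.5) marked 1048 control and 0 H2CKO barcodes, so the automatic call was not used; leaving out the highest 6% of scores was an alternative. The other alternatives changed the rule's limits, the depth, the scaling, the pseudocount and the filter. Genes were named by rule: list members that matter for the description, the 15 highest against other barcodes, and, between libraries, the 6 highest and 6 lowest ratios at least 1 log2 unit beyond the other barcodes. Granule-cell genes and the 2 GFP cells were chosen after their values were seen. The ratio script was tested on simulated data, which is no test of the differences reported. Some list members are not reported here.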

Additional observations from a re-analysis of the deposited data

How the results depend on the processing

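No paired analysis was possible because each genotype has 1 library. White blood cells were 0.589% of control and 0.519% of H2CKO barcodes with at least 3 markers, 0.224% and 0.165% with all 6, and 0.212% and 0.168% after thinning to 2000 UMIs. It was 0.548% and 0.638% of barcodes that were not globin-rich. The other settings moved each share by less than its counting interval. The log2 ratio of GFP was 4 after thinning (0 and 3 UMIs), 0.67 without the cell with the most GFP UMIs, and between 1.34 and 2.11 in the other settings. Against 48 higher and 151 lower genes, thinning gave 24 and 12 (314 genes compared), a minimum of 200 CPM gave 18 and 19 (801 compared), and 20 UMIs alone gave 102 and 300 (5205 compared). The mean over cells of each cell's CPM gave 75 higher genes, leaving out cells with markers of another cell type 73, and leaving out each gene's top cell 22. All 6 markers gave 275 lower genes and a mitochondrial limit of 5% gave 228. Centring on the median gene gave 59 higher and 102 lower. Pf4 turned to -1.51 with at least 3 markers, Hopx to -0.19 with the mitochondrial limit of 5% and to -3.53 after thinning, and Il1b to -0.94 after thinning. Cd69, Ccrl2, Itgam, Ccl9, Spp1, Wnt4, Nppa and Fosb were past 2-fold in the same direction in all 16 alternatives each. Of the 16, no limit on the globin share, 20 UMIs alone and a minimum of 200 CPM left each gene's ratio unchanged. Those settings are no check on a ratio, here or in the other counts out of 16. Ptprc was under 2-fold in 5 of 16, Lcp1 in 9 and Mki67 in 8. The 39 and 45 cells held 747583 and 846947 UMIs, which limits every ratio here. The alternatives that left out cells with other cells' markers or the top cell were chosen after seeing the data.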

Other observations

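A chemokine receptor and several growth factors of these cells were also read. Ccr1 had 41.5 and 53.1 CPM in 19 and 21 cells. Tgfb1, a growth factor that restrains inflammation, had 111 and 142 CPM in 30 and 39 cells, against 18.4 and 20.1 CPM in other barcodes. Vegfb had 61.5 and 88.6 CPM, below the 176 and 203 CPM of other barcodes. Igf1 had 16 and 24 UMIs in 8 cells of each library. Of the matrix proteases, Mmp8, Mmp12 and Mmp13 had no UMI, Mmp9 had 1 in each library, and Plau had 27 and 14 UMIs in 11 and 8 cells. Of the interferon-response list, Ifit1 and Ifit3 had no UMI and Isg15 had 2 and 13 UMIs, while Ifitm3 had 89.6 and 204 CPM, with 55 of its 173 H2CKO UMIs in 1 cell.

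Cells under 2000 UMIs numbered 4 in the control and 2 in H2CKO. When every barcode was thinned to 2000 UMIs before the rule, 19 control and 20 H2CKO cells still had at least 4 markers.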
